A study of Mus musculus with 24 samples.

Results

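The genes described here are the protein-coding genes of the mouse annotation that carry only a gene-model name, Gm followed by a number, which marks a predicted gene without a descriptive name. A gene was included when its name had this form, when it lay on a chromosome other than X, Y, 12, 14 or 18, and when it held at least 48 unique molecular identifiers (UMIs, 1 for each captured RNA molecule) over 24 libraries. The rule found 95 genes among 24614 in the table, out of 372 Gm-numbered protein-coding genes in all and 299 on the allowed chromosomes. At the limit, Gm10778 and Gm8251 held 49 UMIs and were included, and Gm13691 held 47 and was not.

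The cells were ID8 mouse ovarian cancer cells in which the tumour suppressor Trp53 and the DNA repair gene Brca2 had been knocked out, a background that every group shared. Groups were clone 1CF10 with and without interferon beta (IFN beta), clone 2CD7 with and without IFN beta, cells given an empty CRISPR vector (EV) with and without IFN beta, and untransfected cells (WT) with and without IFN beta. Both clones carry a CRISPR knockout of Ifnar1, which encodes a chain of the receptor for type I interferons, and treatment was recombinant mouse IFN beta at 10000 IU/ml for 3 h. Each group had 3 libraries, which the design text calls technical replicates with a shared treatment date. P-values therefore measure technical spread, and a difference between lines is one between these cultures and clones.

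Libraries held 1972192 to 3097331 UMIs (median 2512964.5), with 15685 to 16951 genes detected. Of 12 markers of ovarian surface epithelium and mesothelium, 8 averaged more than 1 CPM (the UMIs of a gene scaled to a common library total), whereas 1 of 12 leukocyte markers and 0 of 6 endothelial markers did, and the leukocyte gene Ptprc had 0 UMIs. Of 5 fibroblast markers, 2 averaged more than 1 CPM, Col1a1 at 63.9 CPM and Dcn at 12.6 CPM, while Lum had 0 UMIs, and their summed level was 29.1 to 194 CPM per library. Ifnar1 transcripts were detected in every library at 4.33 to 16.7 CPM. Counts come from 3′ ends, so this level does not check the knockout.

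Type I interferons signal through their receptor to transcription factors that turn on many antiviral genes within hours. In mice these include the immunity-related GTPases (IRG proteins), which act against pathogens that live in vacuoles, and giant GTPases such as Gvin1. Mammalian genomes also hold processed copies of genes, made by reverse transcription of an mRNA, which lack introns and are mostly counted as pseudogenes. A further large class is the zinc finger genes, which lie in clusters of closely related genes and encode DNA-binding proteins, many of them repressors of transposable elements.

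The 95 genes fell into these kinds by their annotation. A total of 38 were close copies of a gene with another name, with at least 95% identity over at least 75% of their coding sequence. They were counted after the GTPases, zinc finger genes and models sharing exons had been set apart. Some zinc finger genes and GTPases also met this limit, among them Gm15446, Gm4070 and Gm5431. A further 28 were zinc finger genes with 3 to 25 fingers (median 14), 3 were interferon-inducible GTPases, and 10 outside these kinds shared exons with a named gene. The GTPase Gm12185 and the zinc finger genes Gm14305 and Gm49359 also shared exons with a named gene. The other 16 fitted none of these. RefSeq classed 42 of the 95 as protein-coding, 33 as pseudogenes, 2 as transcribed pseudogenes and 4 as long noncoding RNAs, and 14 had no RefSeq entry under the same symbol. Among the 38 close copies, RefSeq called 28 pseudogenes and 2 transcribed pseudogenes. Of these 38, 24 had a single exon and 33 lay on a different chromosome from the named gene. Coding identity had a median of 99.33%, and 8 of the 38 matched the named gene in every coding base.

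The copies are shown beside their named genes because nearly identical transcripts set how far the counts can be separated. Over the best aligned stretch of whole transcripts the median identity was 99.13%, and the lowest was 89% over 35.5% of Gm14288. For some copies only part of the transcript aligned, as with 40.9% of Gm6525 and 48.7% of Gm7102. Coding identity alone therefore does not show how far 3′ counts can be separated. Gm9844 (chr7:24862213-24862697, plus strand, single exon, GRCm38) differs from Tmsb10 (chr6:72957347-72958748, minus strand) at 2 of 132 coding bases. Tmsb10 encodes thymosin beta 10, which binds actin monomers. Gm2000 (chr1:156366040-156366484, plus strand, single exon) differs from Rpl35 (chr2:39001580-39005624, minus strand), a protein of the large ribosomal subunit, at 1 of 369. The whole coding sequences of the first pair and coding bases 87 to 146 of the second are printed 5′ to 3′ from the GENCODE M21 transcripts, with the differing bases in capitals.
Gm9844: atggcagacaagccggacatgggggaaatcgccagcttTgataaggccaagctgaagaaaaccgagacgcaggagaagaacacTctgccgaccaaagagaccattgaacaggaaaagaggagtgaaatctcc
Tmsb10: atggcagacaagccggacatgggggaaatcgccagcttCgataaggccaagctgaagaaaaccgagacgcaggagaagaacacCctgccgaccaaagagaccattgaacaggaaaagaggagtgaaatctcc
Gm2000: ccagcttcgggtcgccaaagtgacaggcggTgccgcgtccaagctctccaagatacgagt
Rpl35: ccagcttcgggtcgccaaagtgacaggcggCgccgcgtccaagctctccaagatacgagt

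The close copies held almost all of the signal. Together the 95 genes made up 0.430% to 0.490% of a library, and 94.0% of their 287684 UMIs were assigned to the 38 copies, with 40.2% on Gm2000 alone. Mean levels over the 24 libraries ranged widely, with 7 genes above 100 CPM and 10 at 1 CPM or below. The median was 4.18 CPM, against 25.6 CPM for 9287 other named protein-coding genes under the same limits. By kind, the median was 16.4 CPM for copies, 1.98 CPM for zinc finger genes, 2.69 CPM for models sharing exons, 3.37 CPM for the 3 GTPases and 3.87 CPM for the rest. A total of 72 genes were detected in all 24 libraries, and the fewest libraries for any was 12. With 3′ counting a UMI stands for a molecule whatever the transcript length, so levels of different genes are given without a length correction.

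**Figure D1:**
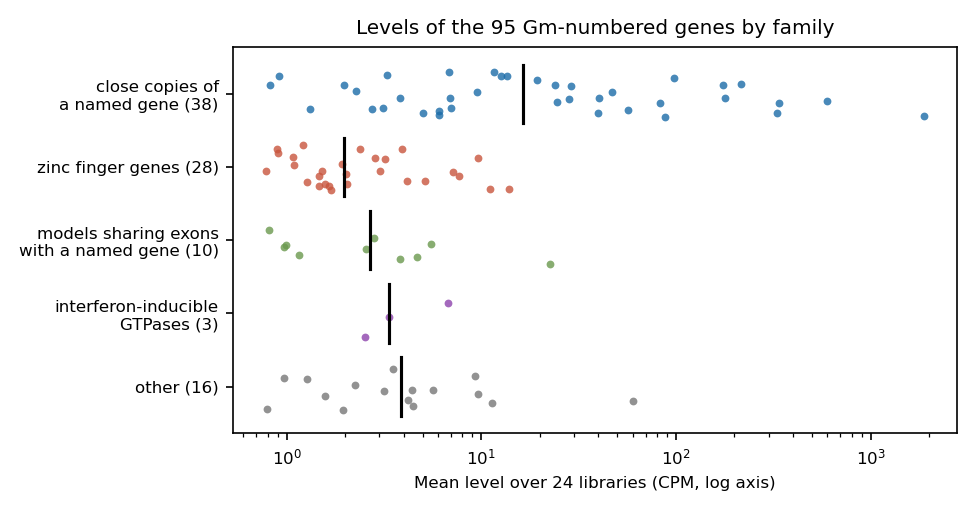
Mean level of each of the 95 genes over 24 libraries (CPM, log axis) by kind, with the number of genes in parentheses; each point is a gene and the vertical bar is the median. The 7 genes above 100 CPM are all close copies, whereas the zinc finger genes have a median of 1.98 CPM.

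The 8 most abundant genes were all close copies, and 7 of them are described here. Gm2000 averaged 1884 CPM, against 3355 CPM for Rpl35. Gm6169 averaged 337 CPM, against 316 CPM for Plp2, a membrane proteolipid. Gm8797 averaged 330.9 CPM beside 1771 CPM for Ubb, a polyubiquitin gene. Gm10131 averaged 217 CPM, against 302 CPM for Erh, a small nuclear protein with a role in RNA processing. Gm10053 averaged 179 CPM beside 522 CPM for Cycs, which encodes cytochrome c. Gm9774 averaged 174 CPM, against 82.0 CPM for Adrm1, a ubiquitin receptor of the proteasome. Gm9844 averaged 98.0 CPM beside 823 CPM for Tmsb10.

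For 37 copies the named gene was also in the table, and 9 of the 37 held more than 50% of the UMIs of both. The median share was 19.7%, and 13 copies held under 10%. A group of 7 single-exon copies of Cdc5l, a splicing factor, lies on chromosome 10 (chr10:118238372-118354105), where 6 are neighbours and Gm32717 lies apart, beyond Iltifb. They had 97.59% to 97.71% identity, shares of 2.33% to 10.6% and means of 2.74 CPM for Gm9040 to 13.6 CPM for Gm9044. The sources used here do not say how reads that match a copy and its named gene were assigned, and a UMI counted on a copy may stem from either gene.

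**Figure D2:**
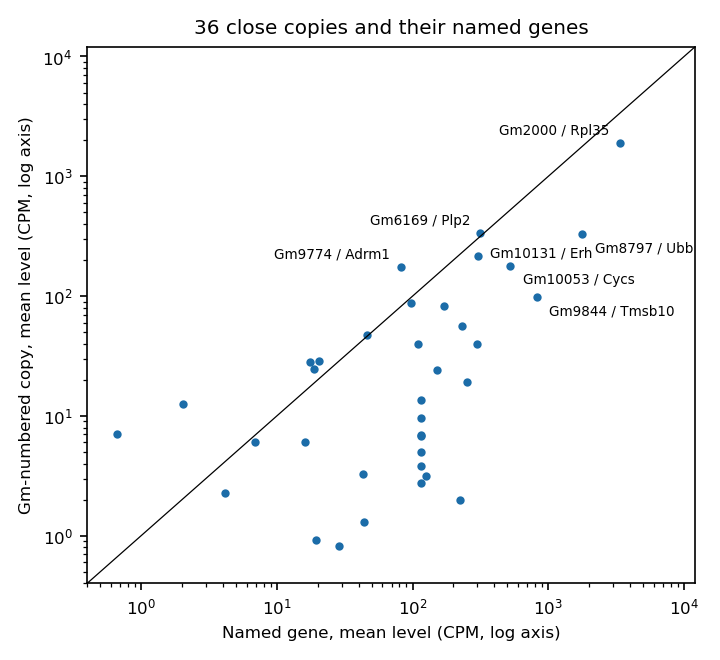
Mean level of 36 close copies against that of the named gene with the closest coding sequence (CPM, log axes); the line marks equal levels and the 7 most abundant of them are labelled with the named gene. Gm6169 lies close to the line at 337 against 316 CPM, and the vertical row of points is the 7 copies of Cdc5l.

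A total of 62 of the 95 genes had enough counts to be tested with edgeR's quasi-likelihood test, which calls a gene when its p, adjusted by Benjamini and Hochberg's method over 11698 genes, is below 0.05. The 62 comprised 33 copies, 10 zinc finger genes, 6 models sharing exons, the 3 GTPases and 10 others. At least 1 call was made for 15 of them, namely 8 copies, the 3 GTPases, 1 model sharing exons and 3 others, whereas 47 were never called and 33 were not tested. Of the Gm-numbered genes discussed next, Gm12185, Gm5431, Gm4070 and Gm14137 passed the filter on low counts only through the IFN beta-treated EV and WT libraries. Counts of responding genes include them and are therefore not read against the share over all tested genes printed beside them.

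The question asked of IFN beta was which of these genes responded in cells with an intact receptor and whether the clones still did. In EV cells, 6 of the 62 genes were called, all higher, and in WT cells 6 were called, of which 5 were higher and 1 lower. Over all tested genes, 5.09% were called in EV cells (3.99% higher, 1.1% lower) and 6.85% in WT cells (5.01% higher, 1.84% lower). The genes called higher in both lines were the 3 GTPases, Gm14137 and Gm12216, of which only Gm12216 passed the filter without the treated EV and WT libraries. No gene of the 11698 was called in either clone (0% in 1CF10 and 0% in 2CD7), although 485 genes in 1CF10 and 510 in 2CD7 had an unadjusted p under 0.05, among them 3 and 1 of the 62. DESeq2 likewise called none of the 62 in either clone.

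Gm12185 (chr11:48904656-48992226, minus strand) has the RefSeq synonym Irgb2b1, a name of the IRG family. Its coding sequence is 92.54% identical to 9930111J21Rik1, and the annotated spans of these genes overlap. The annotated model of Gm12185 shares an exon, though not the last one, with Tgtp1, an IRG gene that was called in EV (4.68 ± 0.27) and WT cells (5.17 ± 0.24). Gm12185 had 13.5, 12.01 and 11.96 CPM in treated EV libraries against 0.401, 0 and 0.814 CPM in untreated EV libraries. It had 16.7, 12.2 and 11.8 CPM in treated WT libraries and no UMI in untreated WT libraries. The treated control libraries stood far above all others without overlap, as the clones held at most 1 UMI per library. In EV cells the 94 UMIs after treatment and 3 without gave a ratio of 30.8 (exact 95% counting interval 10.2 to 152). In WT cells the 108 UMIs after treatment gave at least a 32.2-fold increase over a floor of 3 UMIs for the untreated group. Adjusted p was 2.28e-11 in EV and 1.99e-13 in WT cells (edgeR). These intervals and bounds cover counting error only.

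Gm5431 (chr11:48887422-48902214, minus strand), with the RefSeq synonym Irgb9b8, lies beside Gm12185 and is 97.28% identical to 9930111J21Rik1. Its level was 6.94, 5.82 and 9.83 CPM in treated EV libraries against 0.401, 0 and 0 CPM in untreated ones. Treated WT libraries had 10.6, 11.8 and 12.2 CPM against 0.447, 1.01 and 0 CPM in untreated ones. Here too the treated control libraries stood apart from all others, and the ratios were 55.1 (9.49 to 2214) in EV cells, from 56 UMIs against 1, and 27.4 (9.09 to 135) in WT cells, from 92 against 3. Adjusted p was 2.16e-08 in EV and 2.51e-10 in WT cells (edgeR). The treated clones held 1 UMI in 1CF10 and 2 in 2CD7 over their 3 libraries.

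Gm4070 (chr7:105895139-105953967, minus strand) is a copy of the giant GTPase gene Gvin1 that differs at 3 of 7281 coding bases. It had 18.4, 30.2 and 19.6 CPM in treated EV libraries against 0, 1.22 and 2.85 CPM in untreated ones, and 26.6, 21.6 and 35.4 CPM in treated WT libraries against 0, 2.54 and 0.688 CPM in untreated ones. The log2 fold change was 4.08 ± 0.51 (SE) in EV cells and 4.79 ± 0.53 in WT cells, with adjusted p of 2.71e-06 and 2.94e-07 (edgeR). Gvin1 itself averaged 99.7 ± 8.15 CPM in treated and 6.08 ± 1.65 CPM in untreated EV cells, and 96.4 ± 19.2 CPM in treated and 5.04 ± 2.66 CPM in untreated WT cells (SD, n = 3 each). Its log2 fold changes of 4.07 ± 0.26 and 4.36 ± 0.28 differed from those of the copy by less than 1 SE of the copy. The untranslated ends of Gm4070 and Gvin1 were not compared, and how far 3′ counts separate these genes was not tested.

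Named relatives responded too. For 9930111J21Rik1, the closest in sequence to the pair on chromosome 11, the log2 fold change was 1.97 ± 0.48 in EV cells, which was called, and 1.15 ± 0.50 in WT cells, which was not (adjusted p 0.186, edgeR). Outside the treated EV and WT libraries this gene had at most 2.06 CPM, below the filter limit of 3.98 CPM. It was therefore tested only through those libraries. Its relative 9930111J21Rik2 was called in both, at 1.67 ± 0.11 in EV and 2.55 ± 0.13 in WT cells. Of a list of 9 named IRG genes, 6 were tested, and all 6 rose in both lines with median log2 fold changes of 5.08 in EV and 5.67 in WT cells. Over the whole list of 65 named interferon genes (IRG and giant GTPases and the Ifit, Oas, Schlafen, Apol, PYHIN, MHC class I and Isg15 groups), 43 were tested and 40 rose in EV and 42 in WT cells. None of the 43 was called in either clone. How many of the 43 passed the filter only through treated EV and WT libraries was not counted. The list was drawn up with earlier results of these data known.

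Outside the GTPases, Gm14137 and Gm12216 rose in both control lines. Gm14137 (chr2:119174509-119177575, plus strand) is a single-exon gene inside Dnajc17, a co-chaperone gene on the opposite strand, with no shared exon. It had 17.6, 20.0 and 16.2 CPM in treated EV libraries against 2.81, 3.25 and 2.03 CPM in untreated ones, and 6.08, 5.91 and 5.70 CPM in treated WT libraries against 1.79, 1.01 and 1.03 CPM in untreated ones. The treated groups did not overlap the untreated groups, and treated EV libraries all lay above treated WT libraries, a difference that was not tested. The log2 fold change was 2.76 ± 0.29 in EV and 2.22 ± 0.43 in WT cells, with adjusted p of 1.82e-11 and 0.000108 (edgeR). Dnajc17 was not called, at 0.14 ± 0.34 in EV and -0.19 ± 0.34 in WT cells. The second read was sequenced in the sense direction per the labels, but the sources used here do not say whether counting used the strand.

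Gm12216 (chr11:53783418-53859256, minus strand, 5 exons) lies 5044 bp from Irf1, which encodes an interferon-induced transcription factor, and RefSeq classes it as a long noncoding RNA. It had 21.2, 18.2 and 14.9 CPM in treated EV libraries against 6.83, 5.68 and 6.10 CPM in untreated ones, and 17.5, 20.5 and 19.5 CPM in treated WT libraries against 11.2, 6.59 and 8.94 CPM in untreated ones. Treated and untreated libraries did not overlap in either line, but unlike the GTPases this gene was present in every library of the clones, at 7.07 to 11.8 CPM. The log2 fold change was 1.58 ± 0.23 in EV and 1.14 ± 0.22 in WT cells, with adjusted p of 4.43e-07 and 7.19e-05 (edgeR). Irf1 rose in the same libraries by 1.94 ± 0.09 and 1.98 ± 0.09 on the log2 scale.

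**Figure D3:**
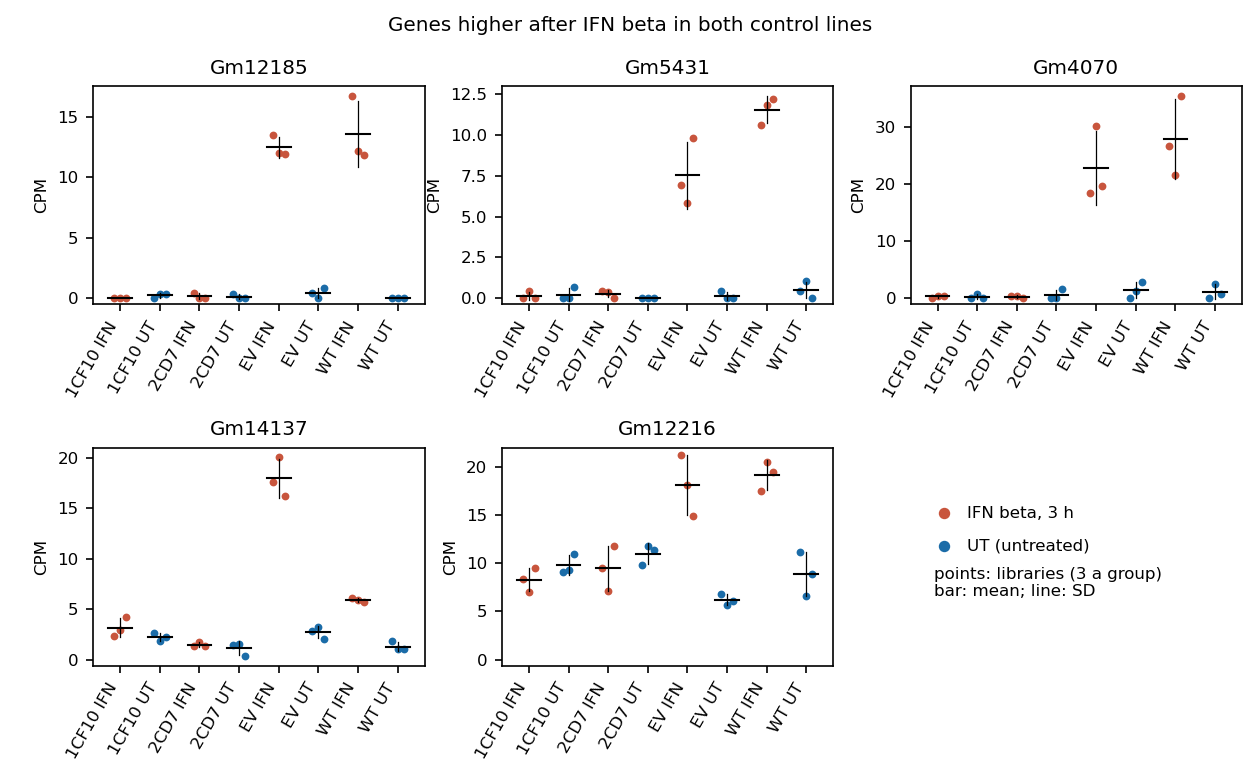
Level of the 5 genes called higher after IFN beta in both control lines, in CPM, for each of 3 libraries in 8 groups (IFN, treated; UT, untreated), with the mean as a bar and the SD as a line. Gm12185, Gm5431 and Gm4070 are near 0 outside the treated EV and WT libraries, whereas Gm12216 has 7.07 to 11.8 CPM in the clones.

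The 300 bases around the RefSeq start (250 before, 50 after) of 3 responding genes are printed on the strand of the gene from RefSeq on GRCm38.p6, since these genes moved together. The motifs searched on both strands were GAAA followed after any 2 bases by another GAAA, the core of the interferon-stimulated response element (ISRE), and TTCNNNGAA, the core of the STAT binding site. Capitals mark the ISRE core or its reverse complement. The windows are chr11:48927133-48927432 (minus strand) for Gm12185, chr11:48902103-48902402 (minus strand) for Gm5431 and chr11:53859207-53859506 (minus strand) for Gm12216. The Gm12185 window lies inside its GENCODE model (chr11:48904656-48992226), away from the model's 5′ end at 48992226, which was not searched.
Gm12185: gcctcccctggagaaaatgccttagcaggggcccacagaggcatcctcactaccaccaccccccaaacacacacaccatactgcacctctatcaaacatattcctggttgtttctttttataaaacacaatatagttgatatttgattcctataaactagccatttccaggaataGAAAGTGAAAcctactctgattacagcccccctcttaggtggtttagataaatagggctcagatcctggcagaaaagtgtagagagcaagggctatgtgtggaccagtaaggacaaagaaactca
Gm5431: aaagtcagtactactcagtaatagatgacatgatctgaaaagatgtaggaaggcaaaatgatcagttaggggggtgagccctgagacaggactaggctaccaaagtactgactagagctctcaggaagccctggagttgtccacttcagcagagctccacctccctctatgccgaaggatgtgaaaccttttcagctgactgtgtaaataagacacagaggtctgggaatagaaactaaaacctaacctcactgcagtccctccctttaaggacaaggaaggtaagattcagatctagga
Gm12216: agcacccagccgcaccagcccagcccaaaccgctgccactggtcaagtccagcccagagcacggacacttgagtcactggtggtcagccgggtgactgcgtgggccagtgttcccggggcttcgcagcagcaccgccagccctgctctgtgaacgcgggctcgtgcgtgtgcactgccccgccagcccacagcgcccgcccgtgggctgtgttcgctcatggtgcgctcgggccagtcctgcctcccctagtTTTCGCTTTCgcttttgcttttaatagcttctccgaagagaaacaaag

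In Gm12185 the ISRE core began 75 bases before the start and a TTCNNNGAA match 86 bases before it, without overlap. In Gm12216 the match was on the reverse strand 2 bases after the start, with TTCNNNGAA 30 bases after it. Neither motif was found in the windows of Gm5431 and Gm14137, and no window was used for Gm4070. The ISRE core was present in 3.44% and TTCNNNGAA in 8.3% of 32851 windows of all genes. The group had 51 windows for 42 genes. Of the 51 windows, 4 held the first motif (Gm12185, Gm12216, Gm4631 and Gm7072) and 4 the second. A match describes letters in the window and not a bound site.

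The 2 remaining responses were small and concerned copies. Gm8797, the copy of Ubb, had 347, 331 and 325 CPM in treated EV libraries against 277, 294 and 307 CPM in untreated ones, a log2 fold change of 0.23 ± 0.07 (adjusted p 0.0238, edgeR), without overlap. Ubb was not called there (0.16 ± 0.06, adjusted p 0.131). The call of Gm8797 was lost when any of 4 of the 6 libraries was left out (treated EV replicates 1 and 2, untreated EV replicates 1 and 2; highest adjusted p 0.224). Gm10184, a copy of the nuclear import gene Kpna2, had 69.9, 62.6 and 71.7 CPM in treated WT libraries against 92.6, 93.3 and 77.7 CPM in untreated ones, a log2 fold change of -0.32 ± 0.10 (adjusted p 0.0402, edgeR). Kpna2 showed 0.03 ± 0.11 in WT cells. In EV cells, where Gm10184 was not called, the values were -0.21 ± 0.10 for Gm10184 and -0.29 ± 0.10 for Kpna2. The call of Gm10184 was lost with RLE size factors (0.0543), with DESeq2 (0.135), without a filter on low counts (0.101), with a minimum count of 30 (0.0516), and on leaving out any library but untreated WT replicate 3 (0.0623 to 0.255).

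No copy other than Gm8797 was called higher, and none other than Gm10184 lower, after IFN beta in EV or WT cells. Over the 33 tested copies the median log2 fold change was 0.03 in EV and -0.05 in WT cells, beside -0.01 and -0.02 over all tested genes. None of the 10 tested zinc finger genes was called in EV (-0.56 to 0.50) or WT cells (-0.31 to 0.14).

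**Figure D4:**
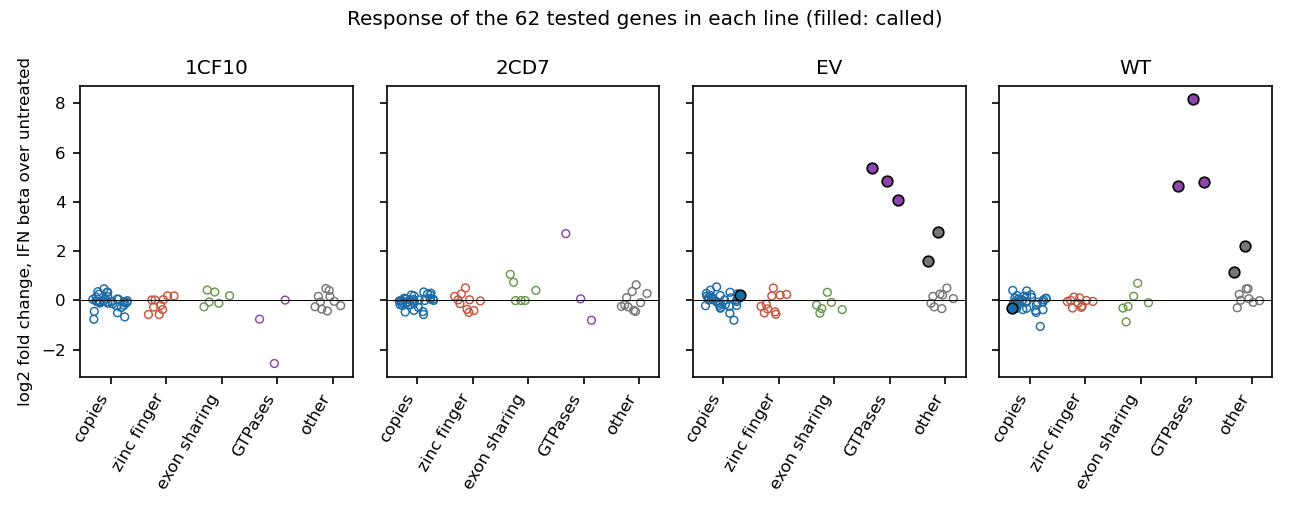
Fitted log2 fold change of IFN beta over untreated for the 62 tested genes in each line, by kind; filled points passed an adjusted p below 0.05 (edgeR) and open points did not. The 3 GTPases are at 4.08 to 5.39 in EV and 4.67 to 8.17 in WT cells, where fitted values of genes with 0 UMIs in a group depend on the fit and are no bounds, and no gene is filled in the clones.

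To ask whether the clones responded less, the mean response of the clones was set against the mean response of EV and WT cells in the same edgeR fit. Of the 62 genes, 4 were called, all lower, beside 5.24% of all tested genes (3.68% lower), and 2 of the 4, Gm12185 and Gm14137, passed the filter only through treated EV and WT libraries. For Gm12216 the difference was -1.61 ± 0.23 (adjusted p 3.98e-07), as it had 8.32 ± 1.22 CPM in treated and 9.79 ± 1.04 CPM in untreated 1CF10 cells and 9.47 ± 2.36 CPM in treated and 11.02 ± 1.06 CPM in untreated 2CD7 cells (SD, n = 3). For Gm14137 it was -2.07 ± 0.48 (adjusted p 0.00242), with 3.15 ± 0.94 CPM in treated and 2.21 ± 0.41 CPM in untreated 1CF10 cells and 1.48 ± 0.26 and 1.14 ± 0.65 CPM in treated and untreated 2CD7 cells. For Gm12185 it was -7.75 ± 1.87 (adjusted p 0.00417), a fitted value that depends on groups with 0 UMIs and is no bound. Its call was lost without untreated 2CD7 replicate 1, which holds the 1 UMI of that group and leaves it at 0 (adjusted p 1).

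The other GTPases were not called in this difference (edgeR), with 0 to 4 UMIs in each group of the clones, at -4.83 ± 1.72 for Gm4070 (adjusted p 0.132) and with an adjusted p of 0.996 for Gm5431, whose untreated 2CD7 group held 0 UMIs. DESeq2 called both, and edgeR called Gm4070 when no filter on low counts was applied. The counts themselves were 1 and 2 UMIs for Gm5431 and 2 and 2 UMIs for Gm4070 in treated 1CF10 and 2CD7 cells, against 56 and 92 UMIs for Gm5431 and 174 and 219 UMIs for Gm4070 in treated EV and WT cells. Of the 43 tested genes on the list of named interferon genes, 29 were called lower in the same difference, among them all 6 IRG genes and Gvin1. Here too, genes that passed the filter only through treated EV and WT libraries were not set apart.

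Gm10053, the copy of Cycs, was the fourth gene called, with a difference of -0.26 ± 0.08 (adjusted p 0.0483, edgeR). Cycs differed by -0.24 ± 0.06 (adjusted p 0.00725), and its own response was called in EV (0.20 ± 0.06) and WT cells (0.19 ± 0.06). In treated EV cells Gm10053 had 219 ± 13.9 CPM against 197 ± 6.29 CPM in untreated ones, and in treated WT cells 171 ± 14.7 CPM against 158 ± 7.93 CPM (SD, n = 3), and neither response passed the test alone. The call of Gm10053 was lost with DESeq2 (0.101) and on leaving out any of 15 of the 24 libraries, with an adjusted p of up to 0.0893.

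Between untreated lines, the calls that held whichever library was left out were those of 3 copies, Gm10131, Gm9844 and Gm10053, and their named genes differed in the same direction. The 6 comparisons share libraries and are not independent. Of 12 calls of copies in them, the named gene was called in the same direction in 10 and had the same sign in 12. Conversely, in 14 instances a named gene was called and its copy was not, and the copy had the sign of the named gene in all 14. Most of the 12 calls were of Gm10131 and Gm9844. A UMI counted on a copy may stem from either gene, so a copy and its named gene are not independent measures. How often they shared a sign over all 30 pairs with both genes tested was not counted. Of 62 genes tested, 3 were called in 1CF10 against EV (10.4% of all tested genes), 2 in 2CD7 against EV (8.86%), 3 in 1CF10 against WT (19.2%), 0 in 2CD7 against WT (3.51%), 4 in EV against WT (14.1%) and 3 in 2CD7 against 1CF10 (13.4%). Of the 62, 5 had an unadjusted p under 0.05 (edgeR) in 2CD7 against WT, beside 1874 of all 11698 tested genes. DESeq2 also called none of the 62 there.

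Gm10131 (chr8:34111002-34111737, minus strand, single exon) matches Erh in all 312 coding bases. It had 169, 183 and 171 CPM in untreated 1CF10 libraries, below every other untreated library, against 237, 241 and 251 CPM in untreated EV and 213, 238 and 233 CPM in untreated WT libraries. Untreated 2CD7 libraries had 228, 227 and 213 CPM. The log2 difference was -0.51 ± 0.07 for 1CF10 against EV (adjusted p 1.83e-07, edgeR), -0.42 ± 0.07 against WT (8.83e-06) and 0.38 ± 0.07 for 2CD7 against 1CF10 (6.41e-05). All 3 calls held whichever library was left out. In the same comparisons Erh differed by -0.57 ± 0.07, -0.31 ± 0.07 and 0.41 ± 0.07, all called. Erh lies on chromosome 12, whose 417 tested genes had median differences of -0.44, -0.32 and 0.26, while the 630 tested genes of chromosome 8, where Gm10131 lies, had medians of 0.04, 0.04 and -0.03.

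Gm9844, the copy of Tmsb10 printed above, was called in 4 comparisons. It had 72.7, 80.7 and 78.1 CPM in untreated 1CF10 and 114, 116 and 107 CPM in untreated 2CD7 libraries, against 78.3, 93.3 and 84.2 CPM in untreated EV and 111, 117 and 115 CPM in untreated WT libraries. The lines fell into a lower pair, 1CF10 and EV, and a higher pair, 2CD7 and WT, with no overlap between the pairs. The log2 difference was 0.56 ± 0.10 for 2CD7 against 1CF10, -0.59 ± 0.10 for 1CF10 against WT, -0.42 ± 0.10 for EV against WT and 0.39 ± 0.10 for 2CD7 against EV, with adjusted p of 2.66e-05, 8.63e-06, 0.00188 and 0.00567 (edgeR). The last call was lost without untreated EV replicate 1 (0.0726). Tmsb10 differed by 0.59 ± 0.06, -0.56 ± 0.06, -0.22 ± 0.06 and 0.24 ± 0.06, all called. In the same order, the 795 tested genes of chromosome 7, where Gm9844 lies, had median differences of 0.12, -0.14, -0.01 and 0.03. The 553 tested genes of chromosome 6, where Tmsb10 lies, had medians of 0.01, -0.07, -0.04 and -0.01. Tmsb10 was also called in 1CF10 against EV (-0.35 ± 0.06), where Gm9844 had -0.17 ± 0.11. The medians there were -0.10 for chromosome 7 and -0.01 for chromosome 6.

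Gm10053 (chr19:24875686-24876631, plus strand, single exon), identical to Cycs over all 315 coding bases, was higher in EV than in WT cells. It had 194, 192 and 204 CPM in untreated EV libraries against 167, 155 and 152 CPM in untreated WT libraries, a log2 difference of 0.32 ± 0.08 (adjusted p 0.0046, edgeR). Cycs differed by 0.37 ± 0.06 in the same direction. Gm8797 was lower in the same comparison, with 277, 294 and 307 CPM in untreated EV against 349, 344 and 342 CPM in untreated WT libraries (-0.24 ± 0.07, adjusted p 0.0105), and Ubb differed by -0.22 ± 0.06, which was called. The call of Gm8797 was lost without untreated EV replicate 1 (0.102) and without untreated WT replicate 1 (0.0661).

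**Figure D5:**
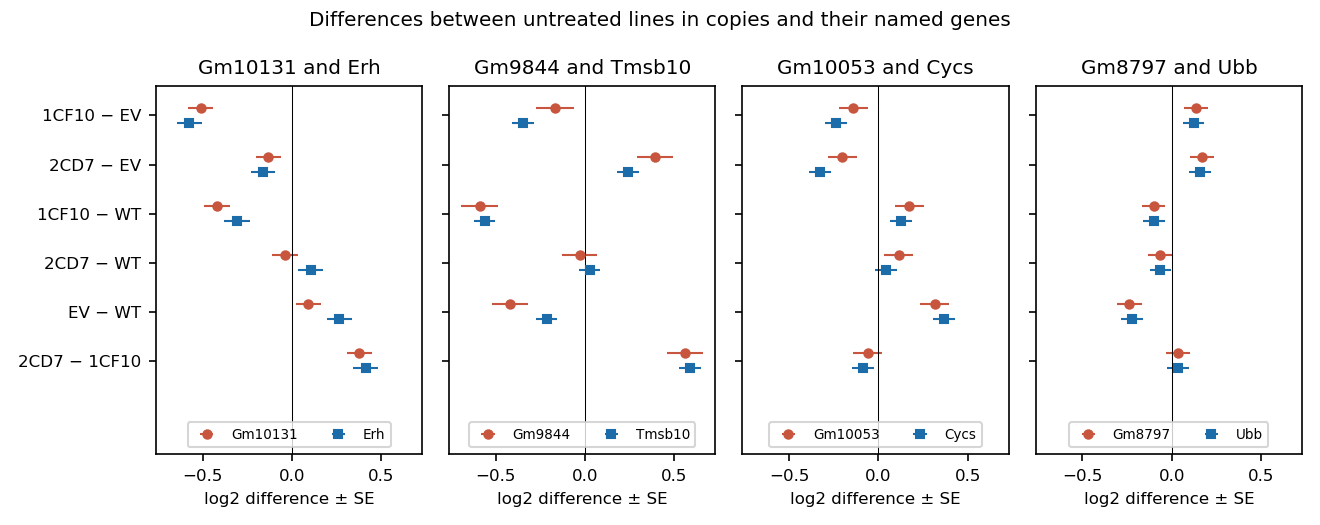
Log2 difference between untreated lines (± SE, edgeR) for 4 copies (circles) and their named genes (squares), with comparisons down the page. Gm10131 and Erh are both near -0.5 in 1CF10 against EV, and the widest gap for that pair is in EV against WT, at 0.09 and 0.27.

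The remaining calls between untreated lines were close to the threshold. Gm10320, a copy of the protein translocation gene Sec61b, was higher in 1CF10 than in EV cells (0.40 ± 0.12, adjusted p 0.0222), where Sec61b had 0.22 ± 0.08 and was not called. Gm9803, a copy of the mitochondrial import gene Pam16, was higher in the same comparison (0.49 ± 0.17, adjusted p 0.0461), with 0.40 ± 0.20 for Pam16. Gm10282, a copy of the nucleosome-binding gene Hmgn2, was lower in 1CF10 than in WT cells (-0.29 ± 0.10, adjusted p 0.0342), and Hmgn2 was called lower at -0.36 ± 0.08. Each of these 3 calls was lost with DESeq2. On leaving out a library of the 6, the calls were lost in 4 cases for Gm10320 (adjusted p up to 0.162), in 5 for Gm9803 (0.25) and in 4 for Gm10282 (0.208).

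Outside the copies, 3 genes were called between untreated lines. Gm45716 (chr11:90187683-90251255, plus strand) shares exons with Mmd and had 7.63, 3.93 and 6.31 CPM in untreated 2CD7 against 3.90, 2.50 and 2.26 CPM in untreated 1CF10 libraries, a difference of 1.11 with an adjusted p of 0.033 (edgeR). Mmd differed by 1.05 ± 0.18 in the same comparison, with 26.04 ± 0.86 CPM in 2CD7 and 12.7 ± 0.96 CPM in 1CF10 cells (SD, n = 3). Gm5617 (chr9:48495442-48495972, plus strand), a single-exon gene 143 bp from Rbm7, had 1.61, 2.03 and 3.25 CPM in untreated EV against 3.58, 5.07 and 7.22 CPM in untreated WT libraries (-1.23, adjusted p 0.0417), without overlap. Gm12216 was higher in 2CD7 than in EV cells (0.82 ± 0.26, adjusted p 0.0327), where untreated EV cells had the lowest mean of any group, at 6.20 CPM. All 3 were lost with DESeq2 (0.116, 0.139 and 0.107) and on leaving out any of 4 to 5 of the 6 libraries, with an adjusted p of up to 0.193, 0.337 and 0.112.

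The zinc finger genes had the lowest median level of the kinds. Of the 28, 16 lie on chromosome 2, 14 of them in a cluster at its distal end (chr2:175061549-177957297), and RefSeq classes 22 of the 28 as protein-coding. Their summed level lay between 89.7 and 105.1 CPM in the 8 group means. The most abundant were Gm7072 at 13.9 CPM and Gm15446 at 11.1 CPM. Gm15446 is 96.94% identical to Zfp932 over 82.64% of its coding sequence. Over 100% of theirs, Gm32687 is 99.83% identical to Zfp433 and Gm3055 100% identical to Zfp781. The limit on read assignment given for copies holds for these genes too. Zinc finger genes of the group were not aligned to each other, so how far their counts can be separated was not tested. None of the 10 tested was called in any of the 11 comparisons, and 18 were not tested. What size of difference these counts could show was not tested.

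None of the 95 genes had 0 UMIs over all 6 libraries of a line and at least 20 UMIs in both groups of another line.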

How the data were processed

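Total RNA was profiled by 3′ multiplexed sequencing with a UMI of 10 bp per the labels. The authors deposited unnormalized UMI counts, a whole number for each Ensembl gene and library. The submitters' processing notes list cutadapt 3.0, limma 3.50.0, edgeR 3.36.0 and R 4.1.2 and 3.6.2 but not their roles. The aligner was not given in the sources used here. CPM is UMIs divided by the library total. Counts of 24 libraries in 8 groups of 3 entered a single fit in edgeR 4.0.16 under R 4.3.3 (filterByExpr at its minimum count of 10, minimum total 15; TMM scaling, robust quasi-likelihood test on group means, Benjamini-Hochberg adjustment over 11698 genes). The SE is the log2 difference divided by the square root of F. The test was checked on simulated data. With totals of 1972192 to 3097331 UMIs, 1 UMI is less than 1 CPM, and counting intervals cover counting error alone.

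All 95 genes matched GENCODE M21 (GRCm38) by identifier. Coding sequences were aligned to those of named genes with blastn 2.17.0, and zinc fingers were counted by their cysteine and histidine spacing. RefSeq types and promoter windows were taken from RefSeq tables on GRCm38.p6 by symbol. Gm10033 has another type in GENCODE M21 than in the deposited table.

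The genes, the lists and the rule for naming were chosen with earlier results of these data known. 1 close copy with its named gene is not reported here. Named were all genes called in any comparison, the 8 most abundant, those beside the limit of 48 UMIs, and, where described, the most abundant of a kind. Some others were named for a sequence match or an annotation. Other settings were RLE size factors, DESeq2 1.42.0, no filter on low counts, a minimum count of 30, a replicate block and leaving out each library. Libraries of the same replicate number did not deviate together (mean correlation 0.00928, -0.0775 to 0.083 over 84 pairs, against -0.00464 for other pairs), so the numbers were not used as pairs.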

Additional observations from a re-analysis of the deposited data

Results flagged for a closer look

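The response of 4 of the 62 tested genes differed between the clones and the control lines by a test of the difference itself in edgeR. Over all tested genes the share was 5.24%, and Gm12185 and Gm14137 passed the filter only through treated EV and WT libraries. For Gm12185 the clones' response minus the controls' response was -7.75 on the log2 scale (adjusted p 0.00417), a fitted value that rests on groups with 0 UMIs. This call was lost without untreated 2CD7 replicate 1. For Gm14137 it was -2.07 (adjusted p 0.00242) and for Gm12216 -1.61 (adjusted p 3.98e-07). For Gm10053, the copy of Cycs, it was -0.26 (adjusted p 0.0483), with Cycs at -0.24. The call of Gm10053 was lost with DESeq2 and on leaving out any of 15 of the 24 libraries.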

How the results depend on the processing

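The calls after IFN beta of the 3 GTPases, Gm14137 and Gm12216 in EV and WT cells held in all settings tried in which the gene was tested, leaving out libraries included. Gm5431 was not tested with a minimum count of 30. Of these genes only Gm12216 passed the filter without the treated EV and WT libraries. For the others, calls that held are therefore no independent support. No difference changed sign. Of the values of single called genes under other settings, 340 kept their call and 69 did not. The count of genes called fell to 1 with DESeq2 in 1CF10 against EV and in 2CD7 against EV, to 1 without a filter in 2CD7 against EV, and was 1 without a filter in 2CD7 against WT (Gm10401); fewer or other genes tested change the adjustment, and beyond that the cause was not tested. On leaving out 1 library, counts ranged from 5 to 6 for the response in WT and in EV cells, 0 to 0 in the clones, 2 to 5 for the clones' minus the controls' response, 1 to 2 in 1CF10 against EV, 0 to 2 in 2CD7 against EV, 2 to 4 in 1CF10 against WT, 0 to 0 in 2CD7 against WT, 2 to 4 in EV against WT and 2 to 4 in 2CD7 against 1CF10. With the replicate block the same genes were called in every comparison, 6 in WT and 6 in EV cells, 0 in each clone and 4 in the difference of responses; for 7 of 24 libraries the closest other library had the same number.

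At this depth 18 of the 28 zinc finger genes were not tested, and groups of the GTPases in the clones held 0 to 4 UMIs. Technical replicates on 1 date leave differences between lines without a measure of spread between cultures.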
